A study of Mus musculus with 4 samples.

Results

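The collagen genes are the genes whose symbol in the array annotation has the form Col, a type number, the letter a and a chain number, such as Col3a1, the gene of the single chain of type III collagen. Of 30141 genes named on the array, 42 had a feature carrying such a symbol and no other, and each of the 42 had 1 feature. They comprise 11 chains of fibrillar collagens, 6 chains of the basement membrane collagen (type IV) and 25 chains of other types. Another 2 features, named Col7a1 with Mir711 and Col6a4 with Dvwa, carried several symbols and were left out. The members were selected by name with no cutoff on a measured value, though with earlier results of these data known.

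RNA was measured in whole lungs of male C57BL mice exposed from 10 weeks of age to mainstream cigarette smoke, 1 h per day on 5 days per week, or to clean air. The 4 groups were clean air for 2 weeks, smoke for 2 weeks (both 12 weeks old at the end), clean air for 4 weeks and smoke for 4 weeks (both 14 weeks old). RNA of 5 mice, or of 4 mice after 4 weeks of smoke, was combined, so that each group was 1 pool on 1 array and the spread between animals was not measured. No genetic modification is named in the labels. Whole lung holds epithelium, endothelium, fibroblasts, muscle and leukocytes, and in such a mixture fewer cells of a type and less RNA per cell cannot be told apart. The median signal of the 4 arrays lay between 58.8 and 61.7.

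Collagens are secreted proteins of 3 chains wound into a triple helix. Types I, III and V assemble into the cross-banded fibrils that give the airway walls, vessel walls and alveolar septa their tensile strength, and fibroblasts are their main source. Type IV forms the sheet-like network of basement membranes, which in the alveolus lies between epithelium and capillary. Other types decorate fibrils (the FACIT collagens, among them types XII and XIV), form beaded filaments near cells (type VI), or span the cell membrane (types XIII and XXIII).

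Values are signals on the linear scale of the deposited table, and a difference is log2 of the smoke pool minus log2 of the control pool of the same duration. A difference at 1 duration compares 2 arrays and has no error. The smoke effect over both durations was estimated with limma, a linear model fitted to every gene, with terms for smoke and duration; it is given with its standard error (SE), its 95% interval where useful, and a p-value adjusted over 18085 genes by the Benjamini-Hochberg method. Those genes lay above a floor set at a mean log2 signal of 5.82, below which 40% of genes lay. Of the 42 collagens, 28 lay above it: 8 of the 11 fibrillar, 6 of the 6 basement membrane and 14 of the 25 other chains. Rose and fell are written only of genes with an adjusted p of at most 0.05. With 4 arrays precision is low. The 1 residual degree of freedom is the gap between the smoke differences at 2 and at 4 weeks, since no group had a replicate pool. To it limma adds a variance prior of 5.38 degrees of freedom estimated from all genes fitted, so that much of each SE is shared between genes. The SE does not measure the spread between mice.

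Col1a1, Col1a2, Col3a1 and Col5a2, chains of fibrillar collagens, had a higher signal in smoke-exposed lungs at both durations. Effects of type IV chains lay between -0.10 and 0.02. The other type V chains, Col5a1 and Col5a3, were both at 0.06, smaller in size than the largest type IV effect. Fold changes are given for linear values on base 2, which was assumed. Col3a1 rose 1.64-fold, or 1.41-fold if the base were e. Col1a1, Col1a2 and Col5a2 were 1.45-fold, 1.31-fold and 1.28-fold higher on average but did not pass the adjusted threshold. With base e these chains would be 1.29-fold, 1.20-fold and 1.19-fold higher. The largest difference in the other direction was that of Col12a1, a fibril-associated chain, 1.28-fold lower at an adjusted p of 0.224 with limma.

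**Figure D1:**
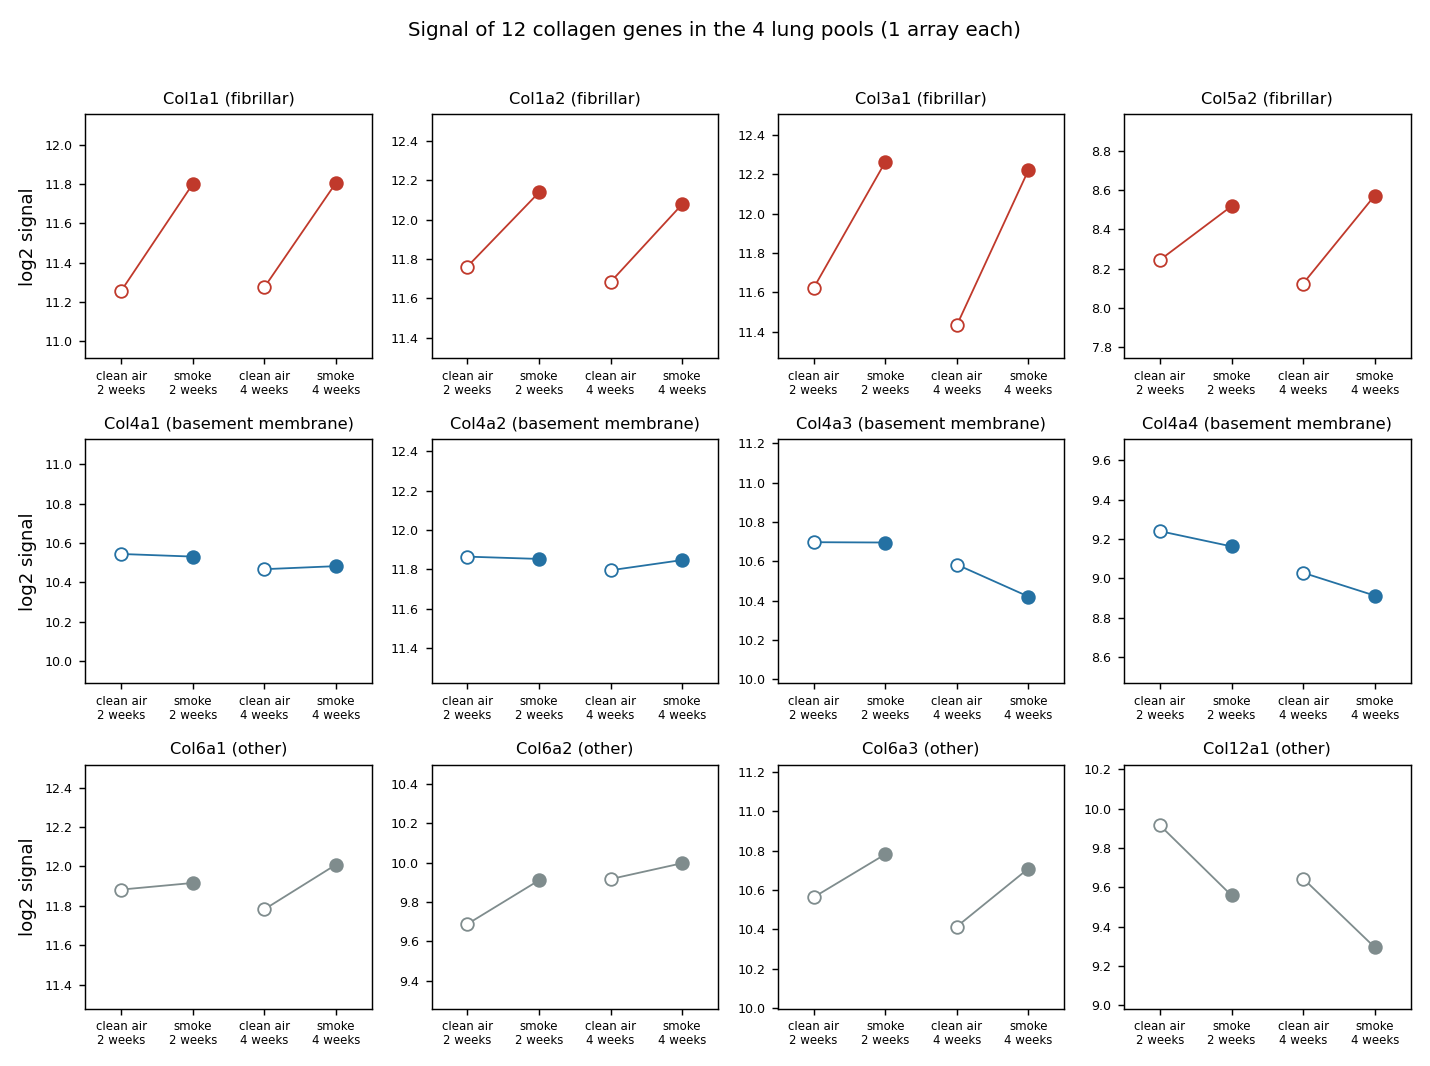
Log2 signal (vertical axis, the same span in each panel) of 12 collagen genes in the 4 lung pools, clean air as open and smoke as filled circles, each circle 1 array of a pool of 4 or 5 mice; lines join the pools of the same duration. In Col1a1, Col1a2, Col3a1 and Col5a2 both smoke pools lie above both clean air pools, Col12a1 shows the opposite order, and Col4a1 and Col4a2 are nearly level.

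Col3a1, whose product forms fibrils together with type I collagen in compliant tissues such as lung, had a signal of 3152 in clean air and 4911 in smoke at 2 weeks, and of 2764 and 4773 at 4 weeks. Both smoke pools exceeded both control pools, and the gap to the nearer control was larger than the gap between the controls. The differences were 0.64 at 2 weeks and 0.79 at 4 weeks, against -0.19 between the 4-week and the 2-week control pool. Over both durations the effect was 0.71 ± 0.105 (SE, 2 smoke and 2 control pools; limma adjusted p = 0.0339), with a 95% interval of 0.46 to 0.97. Col3a1 was the only collagen that passed, and this call depended on the processing. After cyclic loess 0 collagens passed (Col3a1 0.75, limma adjusted p = 0.0771). After median centring 2 did (Col3a1 0.71, at an adjusted p of 0.000321, and Col1a1 at 0.023). In the median-centred fit the prior had infinite degrees of freedom, so all genes shared 1 variance. Its p-values are therefore not comparable with those of the main fit. In fits without the duration term, which is how 3 arrays can be fitted, the call was lost when any 1 pool was left out: the 2-week control (adjusted p = 0.235), 2-week smoke (0.529), 4-week control (0.319) or 4-week smoke (0.963); it was also lost with all 4 pools (0.195). The base behind the linear values is not known, and base 2 was assumed rather than established. Which base, or which other transformation of the signal, the largest deposited value, 845602, reflects was not tested. If the base were e, the Col3a1 effect would be 0.49 (1.41-fold), with the same adjusted p, and 0 collagens would reach 1.5-fold at either duration. Among all 18085 genes, 1.15% rose and 0.315% fell in the main fit.

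The chains of type I collagen, the main fibril protein of the adult lung, differed by nearly equal amounts at both durations. The signal of Col1a1 was 2446 and 2477 in the 2-week and 4-week control pools and 3565 and 3578 in the smoke pools. That of Col1a2, its partner in the heterotrimer, was 3474 and 3290 in the controls and 4510 and 4326 under smoke. The groups did not overlap in either gene. Col1a1 differed by 0.54 and 0.53, with an effect of 0.54 ± 0.101 (95% interval 0.29 to 0.78; limma adjusted p = 0.0749), and its control pools by 0.02. Col1a2 differed by 0.38 and 0.40, with an effect of 0.39 ± 0.101 (interval 0.14 to 0.63; adjusted p = 0.184), and its control pools by -0.08. When limma was fitted to protein-coding genes alone, Col1a1 (adjusted p = 0.00259) and Col1a2 (0.0237) passed as well as Col3a1, Col5a2 (0.0403) and, downward, Col12a1 (0.0377). The effects were the same as in the main fit, but the prior had 12.1 degrees of freedom against 5.38.

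Type V collagen sits inside type I fibrils and governs their diameter. The signal of Col5a2 was 303 in clean air and 367 in smoke at 2 weeks, and 279 and 380 at 4 weeks, so the groups did not overlap. Its differences were 0.27 and 0.45, with an effect of 0.36 ± 0.106 (limma adjusted p = 0.237). Col5a1, which contributes the major chain of the heterotrimer, was at 0.09 and 0.02 with signals of 110 to 117, and Col5a3 at -0.03 and 0.15 with signals of 58.7 to 64.9. The difference between the Col5a2 and Col5a1 effects was not tested. Col5a2 lies next to Col3a1 on the chromosome in the RefSeq gene table, with no protein-coding gene between them.

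The remaining fibrillar chains were close to the floor or under it. Col27a1, a fibrillar collagen of cartilage, was at 0.01 and 0.11, with signals of 102 to 110. Col2a1, the main collagen of cartilage, was at -0.01 at 2 weeks and 0.29 at 4 weeks, with signals of 56.7 to 69.2. The 3 fibrillar members at or under the floor, Col11a1, Col11a2 and Col24a1, had signals of 34.0 to 56.4; their median difference was -0.03 at 2 weeks and 0.20 at 4 weeks. Positive differences at 4 weeks outnumbered negative ones among weak features. The 12056 genes at or under the floor had a median of -0.04 at 2 weeks and 0.07 at 4 weeks. At 4 weeks 8023 of them were above 0 and 4027 below. All 14 collagens there were above 0 at 4 weeks, by 0.04 to 0.24, with a median of 0.18. Why their median was larger than that of all weak features was not tested.

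Sequence upstream of 4 of these genes is printed because their signals moved differently: Col1a2 and Col3a1 (higher under smoke), Col6a3 (a type VI chain, higher by less) and Col4a5 (a type IV chain, level). The RefSeq promoter table, on build GRCm38.p6, matched 33 of the 42 members. Each sequence is the 250 bases before the table's transcript start, 5′ to 3′ on the strand of the gene, without the last 30 bases for Col6a3 and 49 for Col4a5, where the gene's own annotated span begins. Capitals mark motif matches, searched on both strands. The motif CCAAT is the core of the box of that name, the motif TATAAA stands for the TATA box, and the motif GGGCGG stands for the GC box. The regions are chr6:4505368-4505617 (+ strand) for Col1a2, chr1:45311288-45311537 (+) for Col3a1, chr1:90844002-90844221 (- strand) for Col6a3 and chrX:141475169-141475369 (+) for Col4a5.
Col1a2: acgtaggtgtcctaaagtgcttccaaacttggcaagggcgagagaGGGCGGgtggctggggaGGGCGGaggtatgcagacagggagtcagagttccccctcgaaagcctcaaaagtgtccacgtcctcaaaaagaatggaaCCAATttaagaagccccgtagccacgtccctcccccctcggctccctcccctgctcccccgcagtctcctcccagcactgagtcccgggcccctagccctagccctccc
Col3a1: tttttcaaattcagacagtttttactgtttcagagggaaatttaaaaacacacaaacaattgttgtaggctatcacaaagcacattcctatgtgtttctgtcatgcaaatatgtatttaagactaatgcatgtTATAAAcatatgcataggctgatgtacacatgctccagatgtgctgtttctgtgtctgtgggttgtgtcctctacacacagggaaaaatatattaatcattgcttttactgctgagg
Col6a3: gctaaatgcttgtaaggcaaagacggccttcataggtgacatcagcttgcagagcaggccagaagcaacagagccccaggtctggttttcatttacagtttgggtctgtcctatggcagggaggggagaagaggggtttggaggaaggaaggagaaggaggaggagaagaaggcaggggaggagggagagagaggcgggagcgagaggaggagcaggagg
Col4a5: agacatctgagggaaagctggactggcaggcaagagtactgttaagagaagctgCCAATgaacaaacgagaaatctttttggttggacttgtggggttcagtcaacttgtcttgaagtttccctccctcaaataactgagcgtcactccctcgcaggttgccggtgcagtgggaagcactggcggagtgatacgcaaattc

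The printed sequences differ in composition although Col1a2 and Col3a1 were both higher under smoke. Over the full 250 bases, the Col1a2 window was 62% G and C, with 1 CCAAT and 2 GGGCGG, whereas that of Col3a1 was 35.2% G and C, with 1 TATAAA starting 117 bases before the transcript start and neither of the others. The Col6a3 window held none of these letters, and the Col4a5 window held 1 CCAAT and, in the part not printed, 1 GGGCGG. Of 32851 windows of the same length in the table, 33.9% held CCAAT, 12.4% TATAAA and 32.7% GGGCGG. Of the 36 windows of collagen members, 11 held CCAAT, 5 TATAAA and 20 GGGCGG, and their median G and C content was 59.4% against 52.4% over all windows. These are matches of letters and not evidence of binding.

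Type IV chains, the basement membrane collagens, showed little difference between smoke and clean air. Col4a1 and Col4a2 encode the chains of the trimer found in nearly all basement membranes. The signal of Col4a1 was 1493 in clean air and 1480 in smoke at 2 weeks, and 1416 and 1431 at 4 weeks. That of Col4a2 was 3728 and 3698 at 2 weeks and 3553 and 3683 at 4 weeks. In both genes the smoke and control pools overlapped. The effect of Col4a1 was 0.00 ± 0.101 with a 95% interval of -0.24 to 0.24, or 0.85-fold to 1.18-fold, and that of Col4a2 was 0.02 ± 0.101 with an interval of -0.22 to 0.26 (limma adjusted p = 0.999 and 0.981). The RefSeq table places the transcript starts of these neighbouring genes 21 bases apart on opposite strands.

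Col4a3, Col4a4 and Col4a5 encode the chains of the trimer that alveolar and glomerular basement membranes carry. Col4a3 had signals of 1661 and 1659 at 2 weeks and of 1535 and 1371 at 4 weeks, in the control and smoke pool respectively. Col4a4, its neighbour on the chromosome, had 605 and 573 at 2 weeks and 522 and 482 at 4 weeks. Both were lowest in the 4-week smoke pool, but for Col4a4 the 4-week minus 2-week control difference was itself -0.21 on the log2 scale, larger than either smoke difference (-0.08 and -0.12). Neither effect passed: Col4a3 was at -0.08 ± 0.105 and Col4a4 at -0.10 ± 0.101 (limma adjusted p = 0.879 and 0.833). Col4a5 was at 0.03 and -0.02, and Col4a6, whose product partners Col4a5 in smooth muscle and bronchial basement membranes, at -0.08 and 0.00. All 6 type IV chains had a negative difference between the controls (4 minus 2 weeks), from -0.21 to -0.07.

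Among the other collagens, the chains of type VI, which forms beaded filaments beside cells and links them to fibrils, were higher by small amounts. The signal of Col6a3 was 1512 in clean air and 1760 in smoke at 2 weeks, and 1364 and 1673 at 4 weeks, with no overlap between the groups. Its differences were 0.22 and 0.29 and its effect 0.26 ± 0.102 (limma adjusted p = 0.4). Col6a1 was at 0.03 and 0.23 and Col6a2, its neighbour on the chromosome, at 0.22 and 0.08. For Col6a2 the control pools differed by 0.23, as much as the larger smoke difference. Col6a5 and Col6a6, alternative chains for the position of Col6a3, were under the floor.

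Col12a1 had the largest difference among the other collagens and the lowest of all members. Type XII collagen binds the surface of type I fibrils and is found where tissue is under load. Its signal was 965 and 800 in the 2-week and 4-week control pools and 754 and 628 in the smoke pools. Both smoke pools lay below both controls. The differences were -0.36 and -0.35, with an effect of -0.35 ± 0.100 (95% interval -0.60 to -0.11), which did not pass (limma adjusted p = 0.224), and the controls themselves differed by -0.27. With 1 pool left out, and no duration term, the effect was -0.22 if clean air at 2 weeks or smoke at 4 weeks was omitted, -0.48 if smoke at 2 weeks was, and -0.49 if clean air at 4 weeks was. Col14a1, the chain of another fibril-associated collagen, had signals of 1033 in clean air and 1210 in smoke at 2 weeks, 1036 and 1107 at 4 weeks, and differences of 0.23 and 0.10.

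The rest of the other collagens above the floor differed by at most 0.21 at either duration. Col23a1, a transmembrane collagen, was at 0.21 and 0.09, but its control pools differed by 0.12. Col15a1 and Col18a1, chains of the basement membrane zone whose C-terminal fragments are restin and endostatin, were at 0.10 and 0.15 and at 0.07 and 0.13. The transmembrane chain Col13a1 was at -0.01 and -0.03, with signals of 161 to 165. Col8a1 and Col8a2, the short-chain collagens of vessel walls and the cornea, were at 0.00 and 0.03 and at 0.13 and -0.03. Col9a3, Col16a1 and Col20a1, FACIT chains, were at -0.05 and 0.18, -0.05 and 0.08, and -0.08 and 0.12. The 11 other members at or under the floor, Col6a5, Col6a6, Col9a1, Col9a2, Col10a1, Col17a1, Col19a1, Col22a1, Col25a1, Col26a1 and Col28a1, had signals of 27.2 to 59.9.

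**Figure D2:**
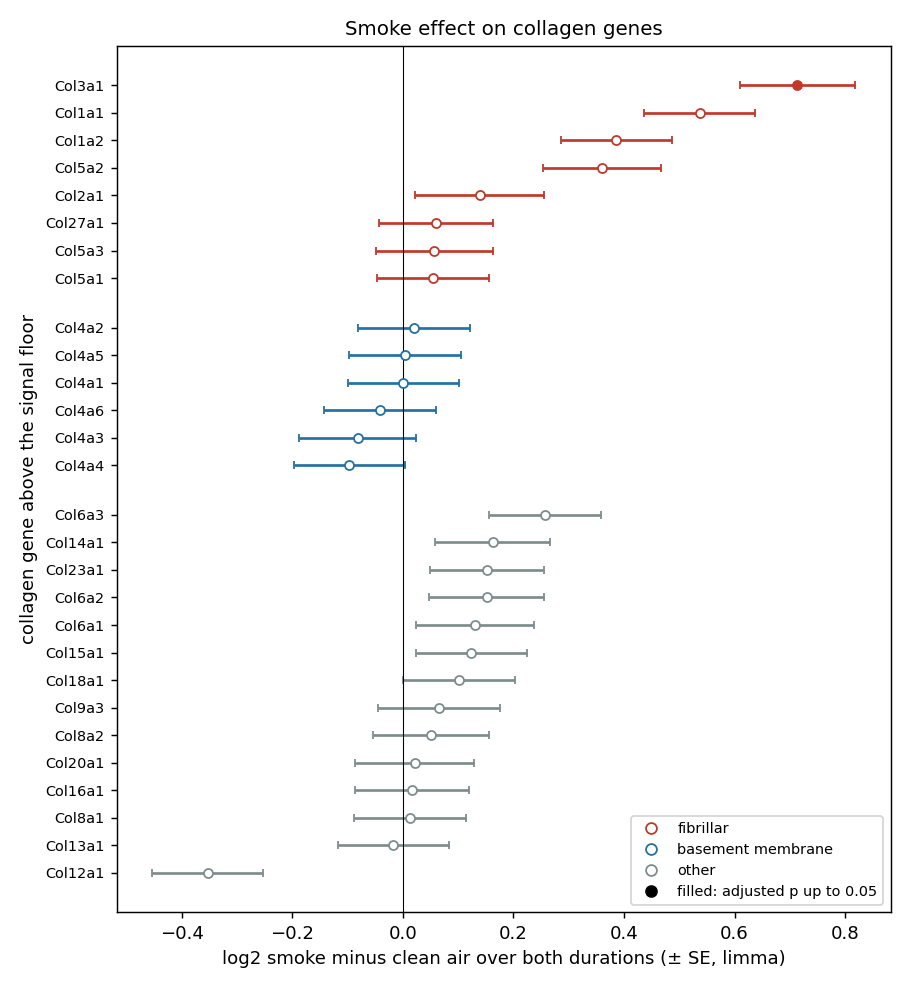
Smoke effect over both durations (horizontal axis, log2 smoke minus clean air from limma, bars ± SE, 2 smoke and 2 control pools) for the 28 collagen genes above the signal floor, ordered by effect within the fibrillar, basement membrane and other classes. Col3a1, the filled point at 0.71, is the gene that passed an adjusted p of 0.05, a call lost after cyclic loess; the type IV chains lie between -0.10 and 0.02, and Col12a1 is lowest at -0.35.

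Compared by class, the fibrillar collagens above the floor had a median difference of 0.18 at 2 weeks and 0.34 at 4 weeks, against 0.01 and -0.02 over all genes above the floor. With the 3 members under the floor added, the fibrillar median at 2 weeks was 0.01 and at 4 weeks 0.22. The type IV chains had medians of -0.01 and -0.01, and the other collagens above the floor 0.05 and 0.09. The smoke effect was above 0 in 8 of 8 fibrillar, 3 of 6 basement membrane and 12 of 14 other chains, and in 48.6% of all genes above the floor. Of the fibrillar chains, Col5a1, Col5a3 and Col27a1 were at 0.06 and Col2a1 at 0.14, with an SE of 0.10 to 0.12. All 14 collagens at or under the floor also had a mean difference above 0, as did 6775 of the 12056 genes there. After median centring the basement membrane count was 1 of 6 and the other class counts were unchanged. No test was made between the classes, since chains measured in the same pools are not replicates of smoke.

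Of the 28 collagens, 13 were higher and 5 lower at both durations, where 27.2% and 29.3% of all genes above the floor were. Both smoke pools exceeded both controls in 12 collagens, 6 fibrillar and 6 other, against 15.7% of all genes, and lay below both in Col12a1 and Col13a1, against 16.8%. Col3a1 was the only collagen at least 1.5-fold higher at 2 weeks (background 1.82%), at 4 weeks (2.53%) and at both (1.13%), also after cyclic loess and after median centring, though not with base e, where 0 collagens reached 1.5-fold. In the other direction 0 were that much lower at 2 weeks (1.22%) or 4 weeks (1.5%). Between the control pools 0 of 28 collagens differed that much, while 1.85% of all genes were higher and 2.24% lower in the 4-week pool. An unadjusted limma p under 0.05 was seen in 6 collagens, namely Col3a1, Col1a1, Col1a2, Col5a2 and Col6a3 upward and Col12a1 downward, and in 11.6% of all genes, 6.46% upward and 5.15% downward.

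The differences at 2 and at 4 weeks share no array. Across the 28 collagens Pearson's r between them was 0.83 and Spearman's rho 0.55, and across all 18085 genes above the floor 0.43 and 0.23. These are descriptions across genes, which are not independent replicates and share the arrays and their scaling. The widest gaps between the durations were those of Col2a1, Col9a3, Col20a1, Col6a1 and Col5a3, all larger at 4 weeks and, apart from Col6a1, all of weak signal. With 1 pool per group a change of the smoke difference with duration could not be tested.

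**Figure D3:**
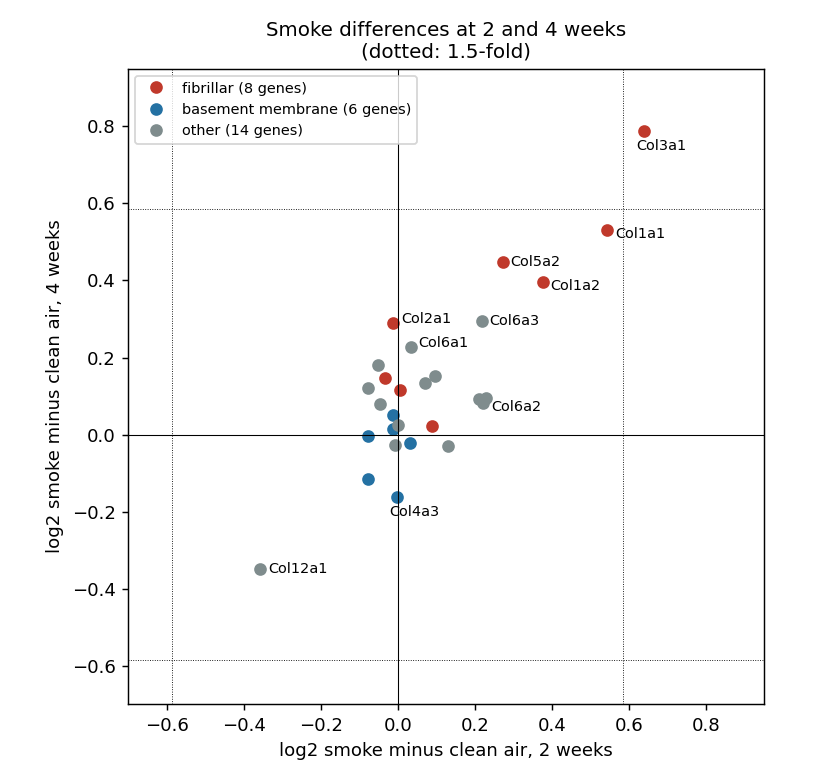
Log2 smoke minus clean air at 2 weeks (horizontal) and 4 weeks (vertical) for the 28 collagen genes above the floor, 1 point per gene coloured by class, with dotted lines at 1.5-fold. Col3a1 lies past 1.5-fold on both axes, Col1a1, Col1a2, Col5a2 and Col6a3 follow on the same side, the type IV chains lie near the origin, and Col12a1 is at -0.36 and -0.35.

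A ratio of 2 features on the same array does not depend on the overall level of that array, and its change between arrays shows unequal change of the 2 genes. The log2 ratio of Col3a1 to Col4a1 was 1.08 and 0.97 in the 2-week and 4-week control pools and 1.73 and 1.74 in the smoke pools. That of Col1a1 to Col4a1 was 0.71 and 0.81 in the controls and 1.27 and 1.32 under smoke. In each ratio the smoke pools lay above both controls by several times the gap between the controls. Col3a1 and Col1a1 had the largest effects of the 28 collagens and Col4a1 the effect nearest 0. These ratios therefore restate the differences of Col3a1 and Col1a1 and add no separate support. Scaling that varies with signal level is not removed by such a ratio. The ratio of Col4a1 to Col4a2, by contrast, stayed between -1.36 and -1.32 in the 4 pools. With 2 pools against 2, an exact two-sided permutation test cannot give a p below 0.333, so none is given.

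The other genes of the collagen pathway were then examined by list. Enzymes and chaperones that modify and fold procollagen in the endoplasmic reticulum gave no call: of 20 listed, 18 lay above the floor, and 0 rose, 0 fell and 18 did not pass limma. Their median difference was -0.01 at 2 weeks and -0.10 at 4 weeks. P4ha3, a catalytic subunit of prolyl 4-hydroxylase, was at 0.49 ± 0.103 (adjusted p = 0.106), and P4ha1, another such subunit, was on the opposite side at -0.44 ± 0.112 (adjusted p = 0.176). Serpinh1, the collagen chaperone HSP47, was at 0.00 at 2 weeks and -0.08 at 4 weeks; it is named here after its values were seen. Of 13 genes of propeptide removal and crosslinking, 10 lay above the floor and none passed, with medians of 0.04 and -0.05. Loxl1, a lysyl oxidase that crosslinks elastin and collagen, was at 0.40 ± 0.103 (adjusted p = 0.185), and Pcolce2, an enhancer of procollagen C-proteinase, at -0.34 ± 0.101 (adjusted p = 0.248).

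Partners and receptors of collagen were likewise without a call. Of 10 fibril partners 9 lay above the floor, with medians of 0.10 and 0.05; fibronectin, Fn1, was at 0.17 ± 0.101 and periostin, Postn, at -0.21 ± 0.100. Of 15 partners of the basement membrane 14 did, with medians of 0.01 and -0.06; the laminin chains Lamb1 and Lama4 were at -0.24 ± 0.101 and -0.22 ± 0.107. Of 10 receptors and uptake genes 8 did, with medians of 0.00 and -0.10. Lair1, an inhibitory collagen receptor of leukocytes, was at 0.50 ± 0.114 (limma adjusted p = 0.133), and Ddr1, a collagen-binding receptor tyrosine kinase, at 0.26 ± 0.105 (adjusted p = 0.403). In these 3 lists 0 genes rose and 0 fell.

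Genes of collagen-cleaving enzymes were the pathway list with calls. Like the other lists, it was chosen with earlier results of these data known. Of 7, 6 lay above the floor, of which 3 rose, 0 fell and 3 did not pass, where 1.15% of all genes rose and 0.315% fell. The medians were 0.60 at 2 weeks and 0.63 at 4 weeks. Ctsk, the collagen-degrading cysteine protease cathepsin K, rose by 3.40 ± 0.135, Mmp8, neutrophil collagenase, by 1.08 ± 0.138 and Mmp2, the gelatinase of mesenchymal cells, by 0.89 ± 0.104 (limma adjusted p = 0.000855, 0.0235 and 0.0177). Mmp9, gelatinase B, lay on the opposite side, at -0.38 and -0.93, with both smoke pools below both controls; its effect of -0.66 ± 0.149 did not pass (adjusted p = 0.131), and it is named after its values were seen. After cyclic loess Ctsk still passed, while Mmp8 (adjusted p = 0.0845) and Mmp2 (0.058) did not.

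Markers of the cells that make collagen gave no call. Of 10 fibroblast markers, 9 lay above the floor, of which 0 rose and 0 fell, with medians of 0.03 at 2 weeks and -0.14 at 4 weeks. Their summed signal was 163607 and 164796 in the 2-week and 4-week control pools and 153971 and 142669 in the smoke pools. Inmt, a methyltransferase gene of this list, was its largest contributor, and without it the sums were 96426 and 100956 in the controls and 99334 and 92916 under smoke, so that the 2-week order was the opposite. Decorin, Dcn, a fibroblast proteoglycan that binds collagen fibrils, was at 0.03 and -0.21. The log2 ratio of Col3a1 to Dcn differed between smoke and control by 0.61 at 2 weeks and 1.00 at 4 weeks. The 4-week value includes the lower signal of Dcn, which is 1 marker of its list. At 4 weeks 6 markers of the list were lower and 3 higher, among them Lum at 0.06 and Dpt at 0.01. All 6 smooth muscle and myofibroblast markers lay above the floor and none passed, with medians of -0.07 and -0.58; their median difference between the controls (4 minus 2 weeks) was 0.38. The summed signal of that list was 42714 and 49987 in the controls and 41757 and 33870 under smoke. Most of it came from Acta2, with 31105 and 37089 in the controls and 31228 and 25629.5 under smoke.

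The remaining marker lists are given beside these values, and they do not measure the share of each cell type in the pools. Of 7 endothelial markers, Cldn5, a tight junction gene, fell (limma adjusted p = 0.023, or 0.0722 after cyclic loess) and 6 did not pass, with medians of -0.18 and -0.23; the list's summed signal was 312516 and 301602 in the controls and 275381 and 244802 under smoke. Medians were -0.02 and -0.23 for 6 pericyte markers, -0.10 and -0.17 for 7 alveolar type 1 markers and 0.06 and 0.10 for 5 alveolar type 2 markers, and none of these passed. Of the 5 alveolar macrophage markers with a named feature, 4 rose (all but Mrc1 also after cyclic loess), against 1.15% of all genes. Siglecf did not pass and was at -0.13 and 0.13. The medians of this list were 1.71 and 2.16, and its summed signal was 8258 and 8893 in the controls and 18585 and 29560 under smoke. The 4 mesothelial markers above the floor had medians of 0.24 and -0.57, with 0.68 between the controls. Their list's summed signal was 6578 and 9402 in the controls and 7705 and 7810 under smoke. Most of it came from Krt19, with 4690 and 6187 in the controls and 5534 and 5874 under smoke. Each summed signal is weighted toward the strongest genes of its list. The 5 cardiac muscle markers had medians of -0.31 and -0.61, with 0.25 between the controls; their summed signal was 12043 and 16168 in the controls and 9929 and 8921 under smoke. Nppa, the 1 of them higher at 2 weeks, was at 1.04 and -1.62, with 2.24 between the controls. Of 10 cartilage markers only Chad, a cartilage matrix protein, lay above the floor; it was at 1.17 and -0.09, with 1.56 between the controls. The part of the cells of any list in the collagen values was not tested.

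**Figure D4:**
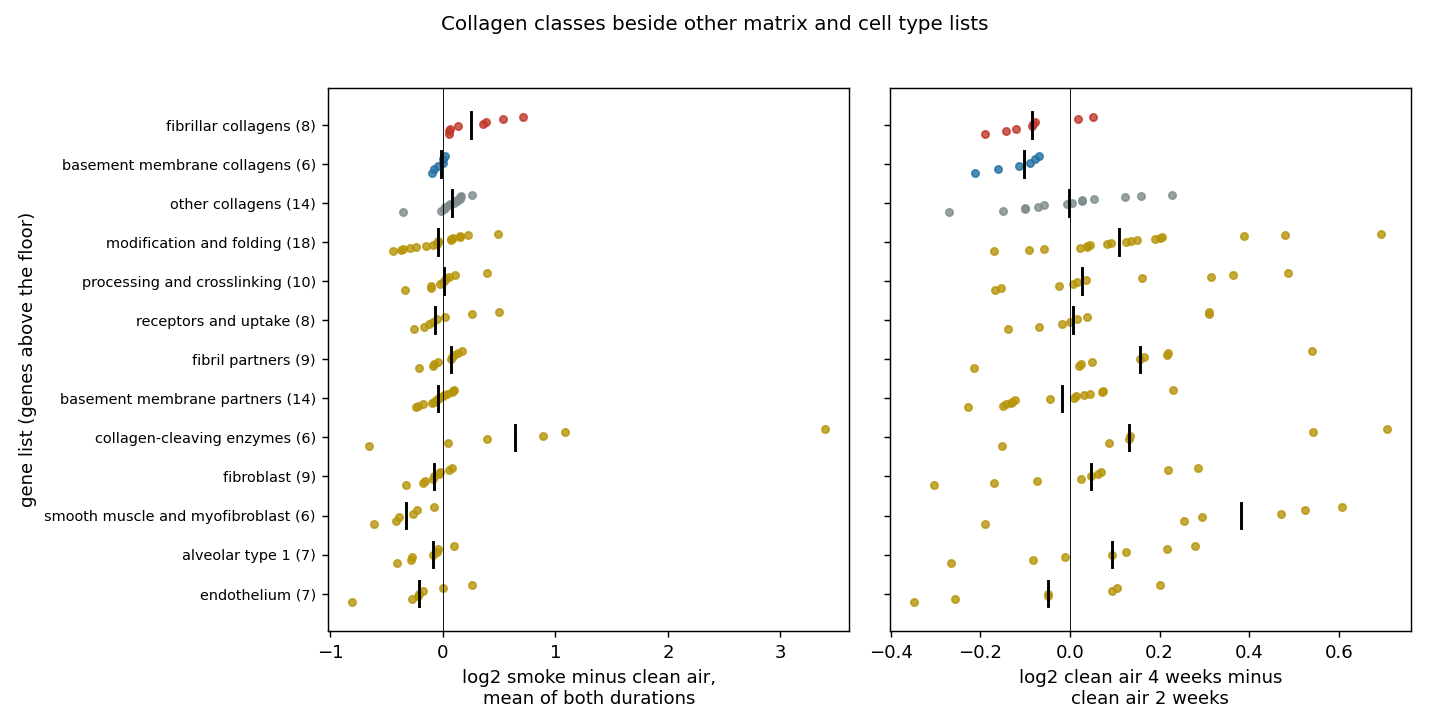
Each point is a gene above the floor; the left panel gives log2 smoke minus clean air as the mean of both durations, the right panel log2 clean air at 4 weeks minus clean air at 2 weeks, for the collagen classes, the other collagen pathway lists and 4 cell type lists (fibroblast, smooth muscle and myofibroblast, endothelium, alveolar type 1), with black bars at medians and the number of genes in brackets. On the left the fibrillar collagens are all above 0 and the collagen-cleaving enzymes reach 3.40 (Ctsk), while the medians of the fibroblast and smooth muscle lists are -0.08 and -0.33; on the right the smooth muscle list has a median of 0.38.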

How the data were processed

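The deposited table holds intensities on a linear scale, 4.93 to 845602, for 65956 features of 4 arrays; per the submitters' processing notes the authors used RMA and Affymetrix Expression Console 1.4.1. RMA as usually run scales arrays to 1 distribution, which would hide a shift common to all genes. Not given in the sources used here: genome build, filters, and the base of the back-transformation. Base e would shrink every log2 difference to 0.69 of its printed size and leave adjusted p-values as they are.

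Values were log2 transformed. In the array annotation 30604 features had 1 symbol, 2146 several and 33206 were not listed. Other genes were renamed by Entrez ID through RefSeq (GRCm38.p6; 22951 features matched), and the feature of highest mean stood for a gene. limma 3.58.1 (R 4.3.3) was fitted with smoke and duration to genes above the floor, leaving 1 residual degree of freedom and a prior of 5.38. On simulated data for this comparison (18085 genes, 200 changed, 10 runs) it recovered 21.4% of genes changed 1.5-fold and 92.4% of those changed 2-fold, with 5.61% false calls. The noise simulated was independent between genes, which is a favourable case.

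The classes were fixed as fibrillar (types I, II, III, V, XI, XXIV, XXVII), basement membrane (type IV) and other. All members could be named, and from each pathway list the 2 genes with the largest effect and those that passed. Members and lists were chosen with earlier results of these data known. The table held 0 columns of other samples. The labels give no replicate numbers. The p-values rest on 1 residual degree of freedom and the prior, and not on replicate pools of a group or on single mice.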

Additional observations from a re-analysis of the deposited data

How the results depend on the processing

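Other settings were cyclic loess, median centring, the mean of all features of a gene, no floor, no duration term, a trended prior, protein-coding genes alone and each pool left out; the pools left out were fitted without duration, where a lone pool is assumed to vary like the others. The number of collagens that passed was 1, and became 0 after cyclic loess, 2 after median centring, 0 without the duration term, 5 with protein-coding genes alone, and 0 to 0 without any 1 pool. Over all genes 208 rose and 57 fell as fitted, 64 and 8 after cyclic loess, 375 and 210 after median centring, 568 and 316 among protein-coding genes alone, and 0 and 0 without the duration term, where 1163 had an unadjusted p under 0.05. The prior had 5.38 degrees of freedom as fitted, 3.64 after cyclic loess and 12.1 among protein-coding genes alone. After median centring it was infinite, so these counts do not rest on equal error estimates. The count past 1.5-fold was 1 at both durations in every scaling with base 2 assumed, and 0 with base e. The fibrillar median at 2 weeks moved from 0.18 to 0.0061 with no floor, which adds 3 chains; the other class medians moved by less than 0.14, the median absolute difference between the control pools over genes above the floor, also with the control pool of the other duration or with types XV and XVIII in the basement membrane class (the type VII feature carried several symbols). Effects near 0 changed sign in 18 cases, none called in either fit. After median centring these were Col4a1 (-0.0064) and Col4a5 (-0.0033). Without 1 pool the effects ranged over 0 for Col4a1 (-0.038 to 0.040), Col4a2 (-0.015 to 0.0548), Col4a3 (-0.22 to 0.055), Col4a4 (-0.22 to 0.028), Col4a5 (-0.10 to 0.11), Col4a6 (-0.086 to 0.0032), Col8a1 (-0.027 to 0.052), Col8a2 (-0.028 to 0.13), Col9a3 (-0.015 to 0.144), Col16a1 (-0.043 to 0.077) and Col20a1 (-0.028 to 0.071). The other settings kept the sign and side of every collagen not named here or in the report. Why these values moved was not tested. The labels number no replicates; smoke and clean air pools were matched by duration, which is a term of the fit. Weak features limit what the 14 collagens under the floor can show.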
